A study of Mus musculus with 21 samples.

Results

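The 36 genes described here encode the machinery by which the liver burns fatty acids and turns them into ketone bodies, together with the regulators that switch this machinery on and classical targets of the nuclear receptor PPARα. They are defined by name and textbook role and not by a threshold on measured values, though earlier results of these data were known when they were chosen. They are 36 of the 46078 gene identifiers counted in mouse liver by RNA sequencing, and all 36 passed the filter on low counts that left 14370 genes for testing. By role they are 3 regulators, 4 genes of fatty acid activation and the carnitine shuttle, 12 of mitochondrial β-oxidation, 7 of peroxisomes, 2 of ω-oxidation, 2 of ketogenesis, and 6 acyl-CoA thioesterases, fuel-switch and binding proteins.

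The animals were males at least 9 weeks old, either Cse-/- (KO; the genotype is labelled cse), which lack the cystathionine γ-lyase that makes cysteine from cystathionine (gene *Cth*), or comparison mice labelled WT, which the study's text describes as Cse+/- heterozygotes. The line is a whole-body knockout on a 129/C57BL/6 background. All were calorie restricted, so every group, the controls included, was already on reduced food. After 3 days on the restricted control diet they received for 2 days the control diet (CTR), the same defined diet without cysteine (noCys) or without tryptophan (noTrp), the other amino acids being raised in proportion. Of WT mice there were 3 libraries on CTR, 4 on noCys and 2 on noTrp, and of KO mice 4 on CTR, 3 on noCys (replicates 1, 3 and 4) and 5 on noTrp.

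Long-chain fatty acids are activated to acyl-CoA by acyl-CoA synthetases, pass the mitochondrial inner membrane as carnitine esters through CPT1, the carnitine-acylcarnitine carrier and CPT2, and are shortened by repeated cycles of dehydrogenation, hydration, a second dehydrogenation and thiolysis. Peroxisomes shorten very long and branched chains, microsomal CYP4A enzymes oxidize the far (ω) end of the chain, and in the fasted liver much of the acetyl-CoA leaves as ketone bodies. PPARα, with the coactivator PGC-1α and the liver factor CREB3L3, induces most of these genes in fasting. Many of its target sites are direct repeats of a hexamer spaced by a single base (DR1), a sequence that other receptors such as HNF4α also bind.

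To show what the members share in sequence, their promoter windows in RefSeq (GRCm38.p6, 250 bases before to 50 after a RefSeq start) were searched on both strands for the DR1 letters AGGTCANAGGTCA, where N is any base. Windows were held for 30 of the 36 genes. Some genes had several windows, and the best match over a gene's windows was counted. None of the 30 had all 12 fixed letters, which 0.0481% of 27025 genes with a window had. At least 10 of the 12 letters were found in 5 of the 30, and in 4.4% of all genes. The best match of each of these 5 genes is given here on the strand that reads as the motif, with capitals where a fixed letter was met, and with its position in GRCm38.p6.
Fabp1 (chr6:71199812-71199824): AGGcCAtAGGTCA
Acot4 (chr12:84038366-84038378): cGGcCAaAGGTCA
Creb3l3 (chr10:81092788-81092800): AGGggAgAGGTCA
Echs1 (chr7:140116492-140116504): AGGTCAcgGGTCc
Slc25a20 (chr9:108662142-108662154): AGGTgAaAGGTCg
The match of *Creb3l3* lay in a RefSeq window (chr10:81092542-81092841) inside the gene, which begins at 81098874 on the minus strand in GENCODE M21. The *Creb3l3* window at that start (chr10:81098823-81099122) met 8 letters. *Fabp1* was the only member with 11 letters, a match found in 0.644% of all genes. Because *Fabp1* is also the most abundant of the 36 and one of those that differed, the part of its window that precedes the gene is shown (chr6:71199629-71199826, plus strand), with the match in capitals as it reads on that strand, 2 bases before the gene begins in GENCODE M21.
Fabp1: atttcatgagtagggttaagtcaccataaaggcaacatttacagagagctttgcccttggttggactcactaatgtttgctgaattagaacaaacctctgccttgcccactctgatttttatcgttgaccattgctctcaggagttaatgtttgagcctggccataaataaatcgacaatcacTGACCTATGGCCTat
A match describes letters and does not show that a receptor was bound in these livers.

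Values below are CPM, read counts of a gene scaled to its library's size with TMM factors, and differences are log2 fold changes with standard errors (SE) from edgeR's two-sided quasi-likelihood test over all 6 groups. A gene was called when its Benjamini-Hochberg adjusted p over 14370 genes was under 0.05. Library totals ran from 8889951 to 27230852 counts, and every member had at least 21 counts in every library, the lowest being *Pdk4*. *Cth* was at 6.34 to 15 CPM in the KO libraries and 108 to 452 CPM in the WT libraries, so each library matched its label at the targeted gene. Hepatocyte markers were abundant in all 21 libraries, 3 of the 7 tested were called lower in KO noCys than in WT noCys, and their summed level was 46200 to 74600 CPM in KO noCys against 98800 to 111000 CPM in WT noCys. *Alb* was the largest part of that sum, with means of 30300 and 67400 CPM, respectively. The means of *Cps1* (2990 and 2920 CPM), *Cyp2e1* (10700 and 10000 CPM) and *Hnf4a* (707 and 756 CPM) were closer. Of the 7, 5 fold changes were negative and 2 positive (median -0.54). Markers of other cells moved between these groups as well. Of 5 erythroid markers tested 3 were called lower in KO noCys (median -1.02), with sums of 128 to 158 CPM against 183 to 375 CPM, and of 6 immune markers none was called but all were negative (median -0.50), with sums of 93.7 to 119 CPM against 120 to 183 CPM. The adipocyte list summed to 0 to 0.514 CPM against 0.252 to 7.47 CPM, its one tested gene, *Cfd*, being called lower (-3.44), and *Lep* and *Ucp1* were at 0 in all 21 libraries. Against KO CTR, 3 of 7 hepatocyte (median -0.57) and 3 of 5 erythroid markers (median -0.85) were called lower in KO noCys, and 0 of 6 immune markers. Against KO noTrp, 2 of 7 hepatocyte (median -0.46) and 2 of 6 immune markers (median -0.69) were called lower, and 0 of 5 erythroid markers. The shares of all genes called lower were 9.59% and 6.75%. The part of these markers in the results was not tested. In bulk tissue, fewer cells of a type cannot be told apart from less RNA per cell.

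Per kilobase of exon and averaged over all libraries, the members spanned a wide range. *Fabp1*, the abundant fatty acid-binding protein of hepatocytes, was at 5590 CPM per kb and *Acaa2*, the mitochondrial 3-ketoacyl-CoA thiolase, at 604. The inducible ω-hydroxylases *Cyp4a14* and *Cyp4a10* were at 347 and 273. *Cpt1a* was at 64.9, *Ppara* at 12.6, *Ppargc1a* at 3.54 and *Pdk4*, which diverts the liver from glucose oxidation, lowest at 1.59.

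Where cysteine could be neither eaten nor made, called members went in both directions. Comparing KO noCys with WT noCys, 9 of the 36 genes were called, 6 higher and 3 lower, which is 25% of the members beside 28.2% of all genes tested (14.8% higher and 13.4% lower). Groups did not overlap for 10 members, 5 in each direction, beside 37.6% of all genes. The median log2 fold change was -0.09 over the members and -0.02 over all genes. The split rests on KO noCys replicate 1, without which 2 members were called higher and 5 lower, 4 of these 7 calls being shared with the full set of libraries, at a median of -0.18. Higher in the knockout were *Cpt1a*, *Hadhb*, *Acaa1a*, *Ehhadh*, *Bdh1* and *Acot2*, and lower were *Hadh*, *Acaa2* and *Fabp1*. Called genes of mitochondrial β-oxidation thus went in both directions. Scaled by library totals instead, 8 members were called, 7 higher and 1 lower, with the median of all genes at 0.20 instead of -0.02 and 3944 of 4927 called genes were higher, so directions here are relative to the TMM scale.

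**Figure D1:**
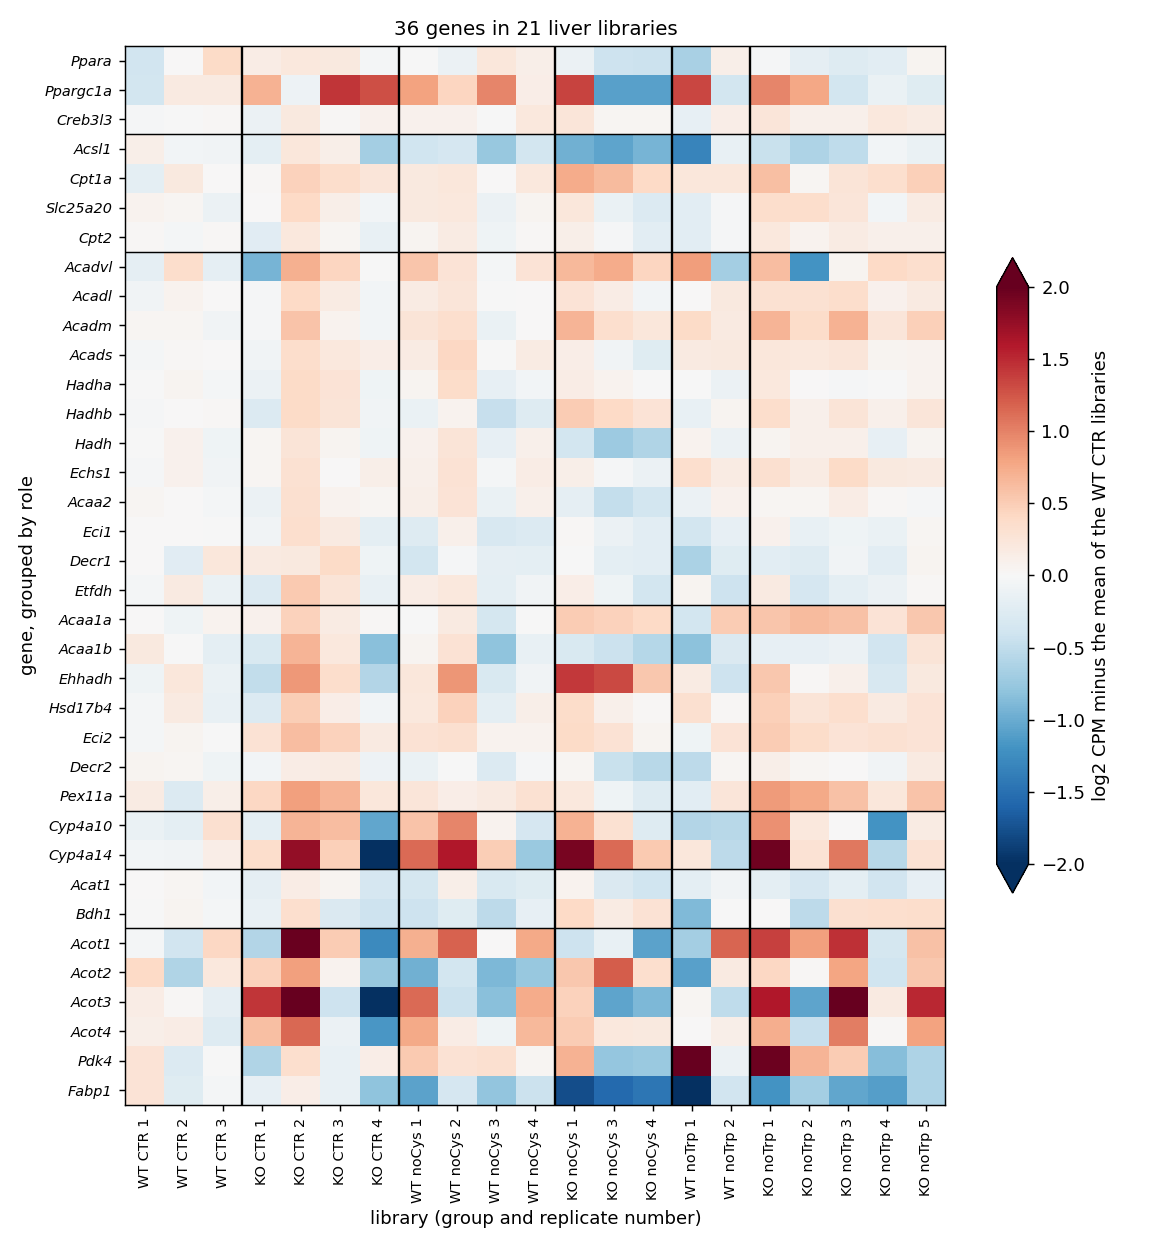
Heat map of the 36 genes (rows, grouped by role) in the 21 libraries (columns, by group and replicate), coloured by log2 CPM minus the mean of the WT CTR libraries; colours saturate at 2 in either direction. The strongest colours are in *Cyp4a14*, *Acot1*, *Acot3*, *Pdk4* and *Fabp1*, and in most of these they differ between libraries of the same group.

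None of the 3 regulators was called in any comparison. *Ppara*, the receptor itself, was at 49.8, 46.1, 58.7 and 54 CPM in WT noCys and at 46.1, 37.6 and 37 CPM in KO noCys. The other WT libraries held 38.1, 50.2 and 65.2 CPM of *Ppara* on CTR and 31.7 and 54 CPM on noTrp, and the other KO libraries 55.6, 57.8, 57.2 and 48.4 CPM on CTR and 48.9, 43.9, 41.9, 43.3 and 51.6 CPM on noTrp. The KO noCys libraries lay at the low end, touching WT noCys only at replicate 1, and the log2 difference was -0.38 (SE 0.17, adjusted p = 0.096). Fitted on those groups alone, or by limma-voom with quality weights, *Ppara* passed the threshold (adjusted p = 0.0315 and 0.0273).

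*Ppargc1a*, which encodes the fasting-induced coactivator PGC-1α, was at 42, 7.67 and 7.65 CPM in KO noCys, so that a single library stood above the whole WT noCys group (28.6, 22.2, 32.5 and 17.9 CPM) and the other two below it. It was at 12.7, 18.6 and 18.6 CPM in WT CTR, 26.7, 15.3, 44.2 and 40.4 CPM in KO CTR, 41.4 and 12.7 CPM in WT noTrp, and 32.3, 27.9, 12.7, 14.9 and 13.8 CPM in KO noTrp. The difference of KO noCys from WT noCys was -0.46 (SE 0.53, adjusted p = 0.541). Without KO noCys replicate 1 it was -1.72 (adjusted p = 0.0151). *Creb3l3*, by contrast, was among the steadiest members. It lay between 322 and 428 CPM in all 21 libraries, at 381, 385, 361 and 418 CPM in WT noCys and 428, 372 and 370 CPM in KO noCys, a difference of 0.01 with a 95% interval of -0.17 to 0.20. In the other groups *Creb3l3* was at 356, 358 and 368 CPM (WT CTR), 332, 415, 365 and 382 CPM (KO CTR), 322 and 396 CPM (WT noTrp), and 427, 386, 385, 418 and 404 CPM (KO noTrp).

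At the entry to mitochondria, *Cpt1a*, the malonyl-CoA-sensitive step that limits long-chain oxidation, differed by genotype on noCys. It was at 682, 628 and 537 CPM there and at 466, 474, 407 and 471 CPM in WT noCys, with no overlap. *Cpt1a* was thus 0.44 higher on the log2 scale (SE 0.13, adjusted p = 0.0177). The call was lost without WT noCys replicate 3, KO noCys replicate 1 or KO noCys replicate 3 (0.36 to 0.53 over all left-out libraries). In WT CTR *Cpt1a* was at 354, 466 and 407 CPM, in KO CTR at 413, 560, 519 and 482 CPM, in WT noTrp at 478 and 475 CPM, and in KO noTrp at 614, 419, 487, 514 and 567 CPM. The KO noCys range overlapped KO CTR and KO noTrp, and *Cpt1a* was not called against either (0.32 and 0.24).

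*Acsl1*, the main long-chain acyl-CoA synthetase of liver, went the other way. It was at 770, 724 and 795 CPM in KO noCys, below all libraries of WT noCys (1140, 1200, 894 and 1170 CPM) and of KO CTR (1320, 1770, 1630 and 935 CPM). The fall from KO CTR was called (-0.89, SE 0.23, adjusted p = 0.00937) except without KO noCys replicate 3 (-0.85, adjusted p = 0.0513), whereas the difference from WT noCys was not (-0.53, SE 0.23, adjusted p = 0.0858). *Acsl1* was also lower in every WT noCys library than in WT CTR (1640, 1450 and 1440 CPM), at -0.46 (SE 0.22, adjusted p = 0.367), and whether cysteine removal acted differently in the genotypes was not resolved (difference of -0.43, SE 0.32, adjusted p = 0.438). On noTrp *Acsl1* was at 601 and 1370 CPM in WT and at 1100, 985, 1060, 1450 and 1380 CPM in KO. The carrier *Slc25a20* and *Cpt2*, on the inner face of the membrane, differed by -0.14 and -0.07 between KO noCys and WT noCys and were not called.

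Within the mitochondrial β-oxidation spiral, 3 of 12 genes were called between KO noCys and WT noCys, 1 higher and 2 lower, beside 28.2% of all genes, with a class median of 0.01. *Hadha* and *Hadhb*, which encode the α and β subunits of the trifunctional protein for long chains, did not move together. *Hadhb* was at 151, 139 and 128 CPM in KO noCys and at 96.3, 111, 76.5 and 88.3 CPM in WT noCys, a non-overlapping difference of 0.58 (SE 0.14, adjusted p = 0.00326). *Hadha* was at 401, 381 and 362 CPM and at 377, 468, 323 and 349 CPM, a difference of 0.01 (SE 0.13), with a 95% interval of -0.24 to 0.26 that does not reach the *Hadhb* interval of 0.32 to 0.85. The difference between the genes was not itself tested. *Hadhb* was called under every alternative tried (0.50 to 0.79). Its KO noCys libraries overlapped KO CTR (87.4, 138, 127 and 100 CPM) and KO noTrp (134, 113, 126, 113 and 126 CPM), and it was called against neither (0.30 and 0.18).

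The pair sits head to head on chromosome 5, with *Hadha* on the minus strand at 30118304 to 30155162 and *Hadhb* on the plus strand at 30155248 to 30184593 (GENCODE M21, GRCm38). The 85 bases that part them are shown because both genes begin at its ends; they hold 9 CG dinucleotides, in capitals.
Hadha-Hadhb (chr5:30155163-30155247): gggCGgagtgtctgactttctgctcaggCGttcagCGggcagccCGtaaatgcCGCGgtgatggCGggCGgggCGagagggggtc
Of the 61-base windows of *Hadhb* transcripts, 17.4% also occur in the processed pseudogene *Gm13910*, so part of its reads could have been placed elsewhere or dropped.

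*Hadh*, the short- and medium-chain 3-hydroxyacyl-CoA dehydrogenase (chromosome 3, 131233419 to 131272101, minus strand), was lowest where both sources of cysteine were missing. It was at 288, 225 and 245 CPM in KO noCys. All 18 other libraries lay between 332 and 447 CPM: 371, 395 and 351 in WT CTR, 382, 445, 386 and 349 in KO CTR, 393, 447, 333 and 397 in WT noCys, 387, 399, 400, 332 and 386 in KO noTrp, and 389 and 342 in the WT mice on noTrp. Against WT noCys, *Hadh* in KO noCys differed by -0.63 on the log2 scale (SE 0.12, adjusted p = 0.000478), against KO CTR by -0.63 (adjusted p = 0.000795) and against KO noTrp by -0.59 (adjusted p = 0.00175), comparisons that share the KO noCys libraries. The effect of cysteine removal on *Hadh* differed between the genotypes (-0.70, SE 0.16, adjusted p = 0.0128), being -0.63 in KO and 0.08 in WT. That test lost its call without KO noCys replicate 3 (-0.63, adjusted p = 0.0522); the comparison with WT noCys kept its call under every alternative (-0.74 to -0.43).

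*Acaa2*, the thiolase that closes the spiral, followed the same pattern with a smaller size. It was at 810, 658 and 709 CPM in KO noCys and at 992, 1100, 831 and 979 CPM in WT noCys, and at 841 to 1150 CPM in the other 14 libraries. Its log2 fold change was -0.43 (SE 0.11, adjusted p = 0.00859) against WT noCys, -0.42 (adjusted p = 0.0134) against KO CTR and -0.38 (adjusted p = 0.0264) against KO noTrp. The difference of the cysteine effect between genotypes for *Acaa2* was -0.52 (SE 0.16) and narrowly missed the threshold (adjusted p = 0.0554). Scaled by library totals it was -0.22 against WT noCys and not called, nor was it without KO noCys replicate 3 (-0.36). Leaving out KO noCys replicates 3 or 4 also ended the calls against KO CTR (-0.36 and -0.40) and against KO noTrp (-0.31 and -0.36), the latter being lost without KO noTrp replicate 3 too (-0.35). Library totals ended both as well (-0.31 in each), as did fitting only the groups compared for the former (-0.44, adjusted p = 0.0544) and no filter for the latter (-0.39, adjusted p = 0.0563).

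The other 8 genes of the spiral were not called in any comparison. The acyl-CoA dehydrogenases for decreasing chain lengths, *Acadvl*, *Acadl*, *Acadm* and *Acads*, differed by 0.33, 0.02, 0.30 and -0.25 between KO noCys and WT noCys. *Acadvl* had the widest spread of the class, from 33.2 to 116 CPM among KO noTrp libraries, and shares 1151 exonic bases on opposite strands with *Dvl2*, so that with an unstated strand setting its counts may include reads of that gene. The hydratase *Echs1*, the isomerase *Eci1*, the reductase *Decr1* and *Etfdh*, which passes electrons to ubiquinone, lay between -0.14 and 0.08.

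**Figure D2:**
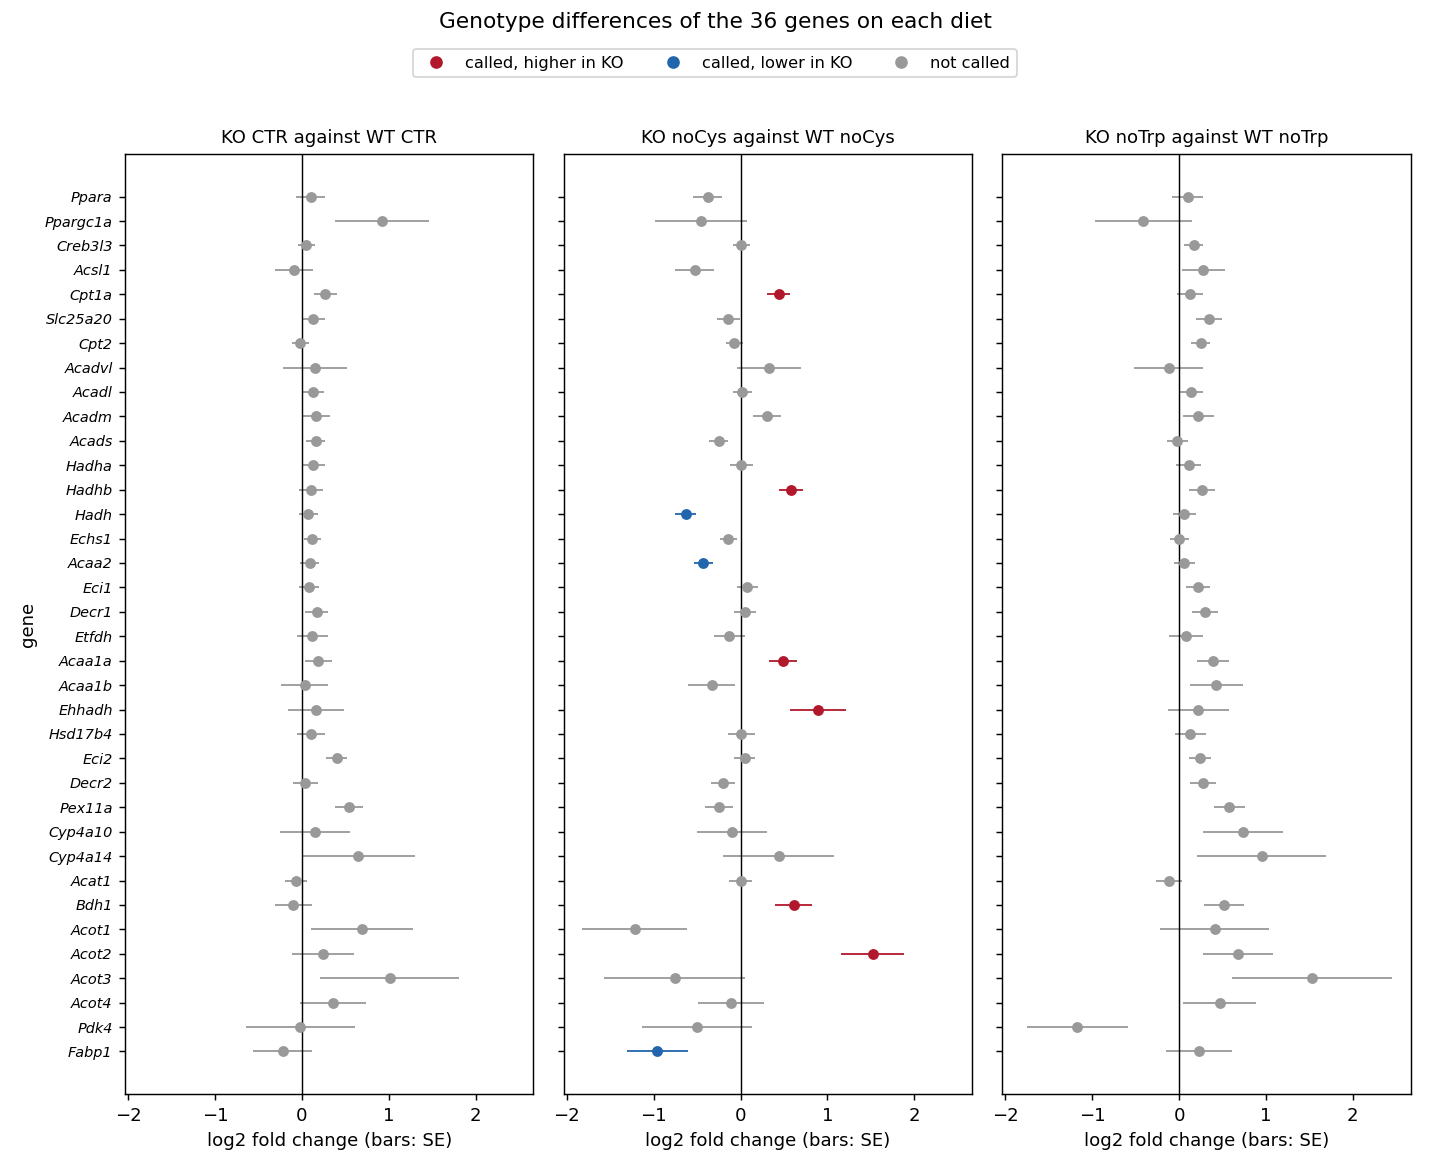
Log2 fold change of KO against WT for each of the 36 genes on the control, noCys and noTrp diets, with bars of 1 SE; red marks called higher, blue called lower and grey not called. Colours appear only in the middle panel, with 6 genes on the right of 0 and 3 on the left.

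Peroxisomal genes gave 2 calls of 7 between the noCys groups, both higher in the knockout, again beside 28.2% of all genes. *Ehhadh*, the bifunctional enzyme of the classical PPARα-inducible peroxisomal pathway (chromosome 16, 21761287 to 21787807), was at 433, 408 and 236 CPM in KO noCys and at 190, 298, 132 and 154 CPM in WT noCys. The groups overlapped, since WT noCys replicate 2 exceeded KO noCys replicate 4. *Ehhadh* rose by 0.89 (SE 0.32, adjusted p = 0.0402) against WT noCys, by 0.98 (adjusted p = 0.0341) against KO CTR (115, 297, 208 and 108 CPM) and by 1.01 (adjusted p = 0.0285) against KO noTrp (235, 165, 174, 130 and 186 CPM), where the groups just did not overlap. The remaining WT libraries had 152, 191 and 148 CPM (CTR) and 183 and 122 CPM (noTrp). The cysteine effect on *Ehhadh* did not differ detectably between genotypes (0.74, SE 0.45, adjusted p = 0.343). The call against WT noCys was lost by limma-voom (0.72) and on leaving out any of WT noCys replicates 1, 3 or 4 or KO noCys replicates 1 or 3 (0.74 to 1.18 over all libraries left out). Against KO CTR it was lost without KO CTR replicates 1, 3 or 4 or KO noCys replicates 1 or 3 (0.78 to 1.05) and with only those groups fitted (0.96, adjusted p = 0.0826), and against KO noTrp without KO noCys replicates 1 or 3 or KO noTrp replicates 2, 3 or 4 (0.86 to 1.00).

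*Acaa1a*, a peroxisomal thiolase, was at 410, 396 and 382 CPM in KO noCys, above all of WT noCys (287, 327, 226 and 288 CPM), a difference of 0.49 (SE 0.16, adjusted p = 0.0262). The KO noCys values overlapped KO CTR (306, 397, 322 and 293 CPM) and KO noTrp (424, 446, 434, 349 and 420 CPM), and *Acaa1a* was called against neither. In the other WT groups it was at 291, 272 and 304 CPM (CTR) and at 223 and 408 CPM (noTrp). Its near-copy *Acaa1b* was at 311, 285 and 260 CPM and at 397, 470, 220 and 347 CPM, a difference of -0.33 (SE 0.27, adjusted p = 0.378). The genes share 10.8% of *Acaa1a* and 27.1% of *Acaa1b* 61-base windows, and how the counting treated such reads is not given in the sources used here. The call for *Acaa1a* was lost without WT noCys replicate 3 or KO noCys replicates 1 or 3 (0.40 to 0.57).

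*Pex11a*, a peroxisome-dividing membrane protein and a PPARα target, showed the other called difference between genotypes. KO CTR had 161, 214, 193 and 141 CPM and KO noCys 140, 114 and 101 CPM, with no overlap. In WT it was at 135, 99.7 and 131 CPM on the control diet and at 143, 133, 137 and 149 CPM without cysteine, which overlap. *Pex11a* therefore fell with cysteine removal in KO (-0.59, SE 0.16, adjusted p = 0.016) and was at 0.21 (SE 0.16, adjusted p = 0.616) in WT, a difference of -0.79 (SE 0.23, adjusted p = 0.0419). That difference kept its call by DESeq2, by limma-voom, with RLE factors, with no filter and with only the groups compared. It was not called when scaled by library totals (-0.65, adjusted p = 0.0849), nor on leaving out any one of 11 of the 14 libraries (adjusted p of 0.0529 to 0.116), the exceptions being KO CTR replicates 1 and 4 and KO noCys replicate 1. *Pex11a* in KO noTrp was at 218, 205, 181, 142 and 179 CPM, and KO noCys was lower than these by -0.65 (adjusted p = 0.0102). Both falls lost their call without KO noCys replicate 3 (-0.56 and -0.62) or 4 (-0.48 and -0.54). The WT noTrp libraries had 104 and 143 CPM. Between the genotypes *Pex11a* differed by -0.25 (SE 0.16, adjusted p = 0.265) on noCys and by 0.54 on CTR (unadjusted p = 0.00356, adjusted p = 0.216). The remaining peroxisomal genes *Hsd17b4*, *Eci2* and *Decr2* lay at 0.01, 0.05 and -0.20 and were not called.

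The ω-hydroxylases *Cyp4a10* and *Cyp4a14*, among the most PPARα-responsive genes of mouse liver, were not called anywhere. *Cyp4a14* was at 2040, 1190 and 779 CPM in KO noCys and at 1190, 1650, 768 and 326 CPM in WT noCys. The groups overlapped, with the highest library in KO and the lowest in WT. In KO CTR it ran over 698, 1850, 755 and 120 CPM, a 15.5-fold span within a single group, while WT CTR was tight at 522, 517 and 599 CPM. On noTrp there were 640 and 381 CPM in WT and 2100, 664, 1130, 369 and 665 CPM in KO. With this spread the difference of *Cyp4a14* between KO noCys and WT noCys was 0.44 with a 95% interval of -0.80 to 1.69, and that of *Cyp4a10* -0.10 with an interval of -0.90 to 0.69, so neither interval leaves out a change of the size called for *Hadhb* or *Cpt1a*. Of the 61-base windows of *Cyp4a10*, 19.3% are shared with *Cyp4a32*.

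The ketogenic genes on the list were split. *Bdh1*, which reduces acetoacetate to β-hydroxybutyrate, was at 413, 352 and 386 CPM in KO noCys, above WT noCys (236, 266, 220 and 281 CPM) by 0.61 on the log2 scale (SE 0.21, adjusted p = 0.032). *Bdh1* lost this call on leaving out any of 5 of the 7 libraries (0.55 to 0.67) and shares 533 exonic bases on opposite strands with *Gm15743*. The KO noCys values overlapped KO CTR (284, 399, 259 and 237 CPM) and KO noTrp (318, 218, 393, 398 and 400 CPM), against which *Bdh1* was not called (0.38 and 0.15). The acetoacetyl-CoA thiolase *Acat1* differed from WT noCys by 0.00 with a 95% interval of -0.26 to 0.26.

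The thioesterases, which release free fatty acids from acyl-CoA, gave the largest difference among the members between the noCys groups. *Acot2*, the mitochondrial form (chromosome 12, 83987861 to 83993873), was at 11.3, 18 and 9.77 CPM in KO noCys and at 3.91, 5.97, 4.08 and 4.48 CPM in WT noCys, which is 1.52 higher on the log2 scale (SE 0.36, adjusted p = 0.00369) and was called under every alternative (1.20 to 1.74). On the control diet *Acot2* was at 10.2, 5.02 and 8.94 CPM in WT and at 10.6, 13.8, 8.11 and 4.48 CPM in KO. Without tryptophan it was at 3.55 and 8.74 CPM in WT and at 10.4, 7.81, 13.4, 5.83 and 11.3 CPM in KO. Thus the WT noCys libraries were at the low end of all groups, and the changes on cysteine removal were 0.48 (SE 0.34, adjusted p = 0.352) in KO and -0.80 (SE 0.38, adjusted p = 0.346) in WT, neither called, nor was their difference of 1.28 (SE 0.51, adjusted p = 0.13).

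*Acot1*, the cytosolic neighbour of *Acot2*, pointed the other way, at 12, 14.3 and 7.52 CPM in KO noCys and 26.1, 36.3, 16.1 and 27.1 CPM in WT noCys. The groups did not overlap, but the difference of -1.22 (SE 0.60) was not called (adjusted p = 0.134). *Acot1* passed when only these groups were fitted (-1.22, adjusted p = 0.00696) and by limma-voom (-1.38, adjusted p = 0.0482). It shares 12.4% of its 61-base windows with *Acot2*, and *Acot2* shares 22.6% with it, and how shared reads were counted is not given in the sources used here. *Acot3* and *Acot4* were at -0.76 and -0.11, not called; both overlap the antisense gene *4732463B04Rik*, and within KO CTR *Acot3* ran from 2.1 to 102 CPM.

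*Fabp1* (chromosome 6, 71199827 to 71205023) was lower in KO noCys, at 1390, 1620 and 1740 CPM, than in every library of WT noCys (2270, 3760, 2750 and 3520 CPM) and of KO CTR (4220, 5220, 4280 and 2730 CPM). The log2 fold change of *Fabp1* was -0.96 (SE 0.35, adjusted p = 0.0463) and -1.38 (SE 0.36, adjusted p = 0.00971), respectively. The second was called under every alternative. The first was lost when scaled by library totals (-0.74), and on leaving out any of 6 of the 7 libraries (-1.08 to -0.85). Mean *Fabp1* levels were highest in the control diet groups, WT included (5770, 4030 and 4600 CPM in WT CTR), all above WT noCys, a difference of -0.64 (SE 0.34, adjusted p = 0.409), and the cysteine effect did not differ detectably between genotypes (-0.74, SE 0.49, adjusted p = 0.387). On noTrp *Fabp1* was at 692 and 3630 CPM in WT and at 2070, 2970, 2310, 2210 and 3090 CPM in KO. *Pdk4* was not called in any comparison, at 6.32, 2.19 and 2.25 CPM in KO noCys and 5.6, 4.73, 4.84 and 3.93 CPM in WT noCys.

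**Figure D3:**
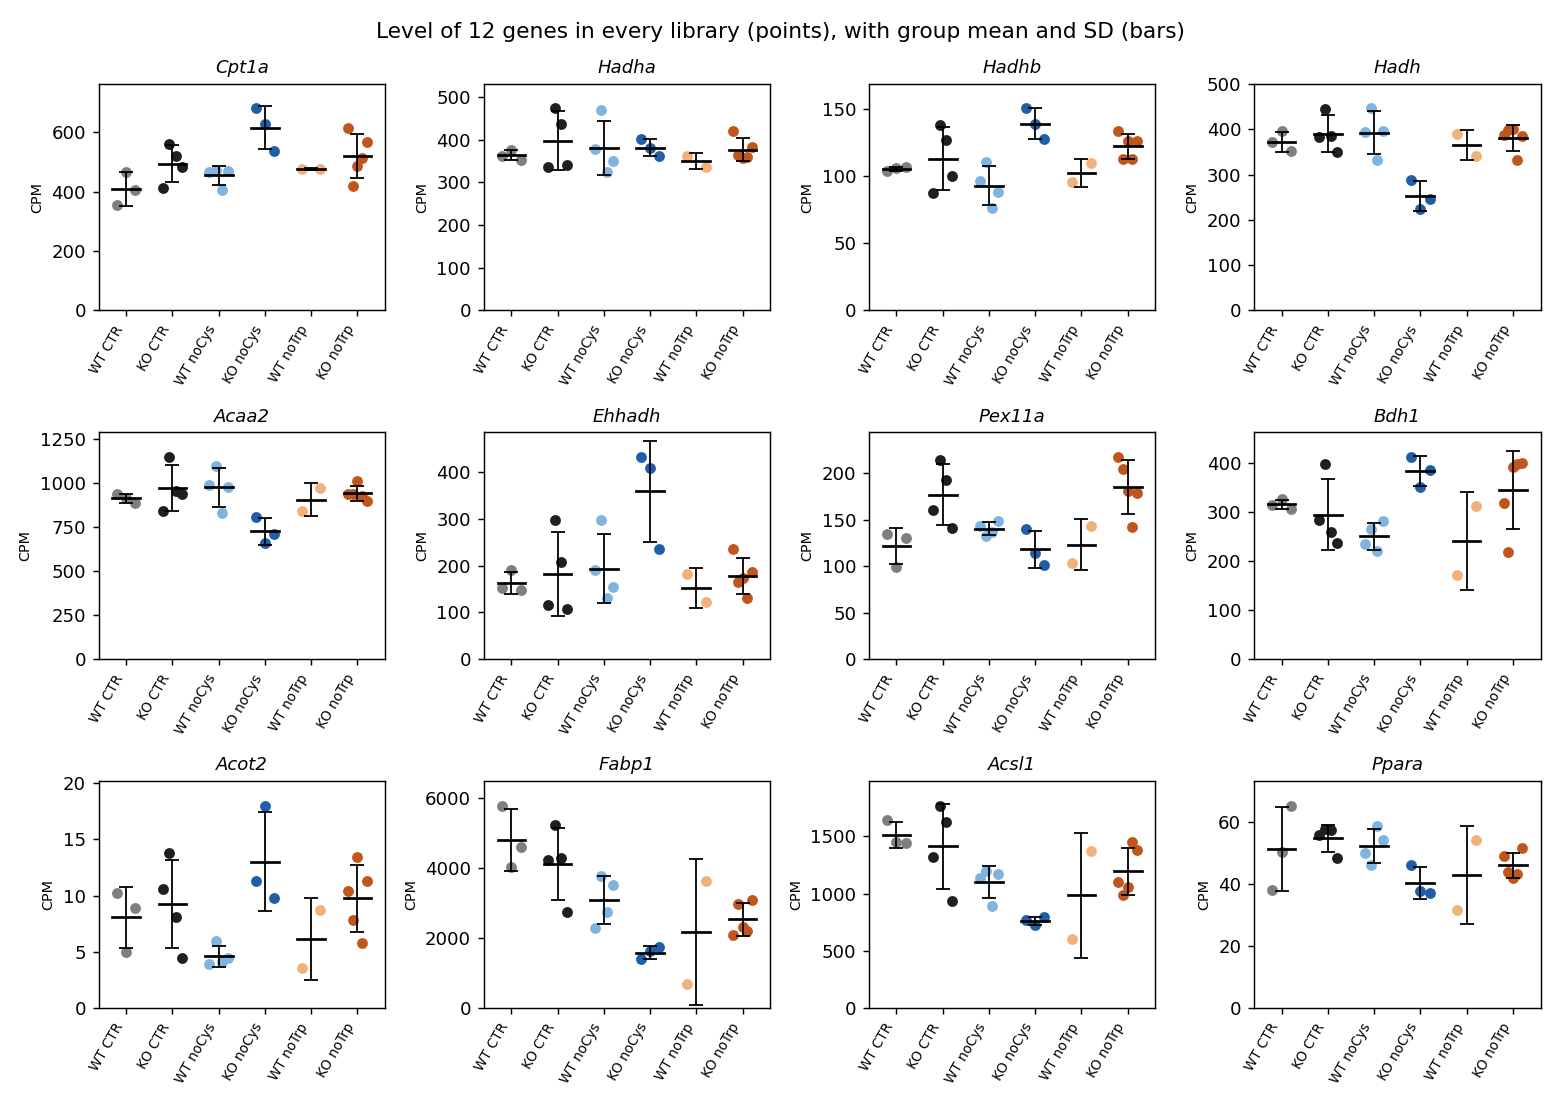
CPM of 12 genes in every library (points, by group), with the group mean (line) and SD (bars; n = 2 to 5). *Hadh* and *Acaa2* are lowest in KO noCys, *Fabp1* and *Acsl1* are low there and in WT noTrp replicate 1, *Ehhadh* has its highest mean in KO noCys, and *Hadhb* differs between the noCys groups while *Hadha* does not separate.

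Without a missing amino acid, or with tryptophan missing, the genotypes were not distinguished at any member. Comparing KO CTR with WT CTR, 0 of 36 were called by edgeR (0.32% of all genes were) and 2 had an unadjusted p under 0.05 (9.59% of all genes), *Eci2* and *Pex11a*. Both were higher in every KO CTR library than in every WT CTR library, with log2 fold changes of 0.40 and 0.54, the only members whose groups did not overlap, beside 10.9% of all genes. Comparing KO noTrp with WT noTrp, 0 were called (0.195% of all genes) and 5 had an unadjusted p under 0.05 (8.91%). DESeq2 and limma-voom also gave 0 calls in both. The fold change was positive for 30 of 36 members in each comparison, with medians of 0.13 and 0.23 where the median of all genes was 0.00. Without KO CTR replicate 2 the first median was -0.01, and without WT noTrp replicates 1 and 2 in turn the second was 0.16 and 0.35.

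Between diets, members were called in comparisons with KO noCys and in none of the others. In KO noCys against KO CTR, 6 of 36 members were called, 5 lower (*Acsl1*, *Hadh*, *Acaa2*, *Pex11a* and *Fabp1*) and *Ehhadh* higher, beside 20.2% of all genes (10.6% higher and 9.59% lower). In KO noCys against KO noTrp, 4 were called, *Hadh*, *Acaa2* and *Pex11a* lower and *Ehhadh* higher, beside 13.9% of all genes (7.17% higher and 6.75% lower). No member was called by edgeR in KO noTrp against KO CTR (1.87% of all genes were), in WT noCys against WT CTR (0.661%) or in WT noTrp against WT CTR (3.19%). An unadjusted p under 0.05 was reached by 4, 1 and 5 members in these, beside 16.9%, 13.9% and 18.2% of all genes. DESeq2 and limma-voom called none of the members there either. The test of a different cysteine effect by genotype called 2 members, *Hadh* and *Pex11a*, beside 7.44% of all genes. Negative fold changes outnumbered positive ones in these tests, with 24 of 36 members against KO CTR (median -0.14), 26 of 36 against KO noTrp (median -0.13) and 27 of 36 for the difference of the cysteine effect (median -0.24), where the medians of all genes were 0.00 to 0.01. Without KO CTR replicate 2 the first and the last median were -0.05 and -0.06. The test of a different tryptophan effect by genotype called 0 of 14370 genes (0%) by edgeR, with 0 members and 5.71% of all genes at an unadjusted p under 0.05.

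WT noTrp had only 2 libraries, and they differed from each other in several members. *Fabp1* was at 692 CPM in replicate 1 and 3630 CPM in replicate 2, *Pdk4* at 25.7 and 3.51 CPM, *Acsl1* at 601 and 1370 CPM, and *Bdh1* at 171 and 312 CPM. Fasting-responsive genes outside the set differed as well: *Igfbp1* was at 1950 and 206 CPM and *Irs2* at 38.5 and 3.14 CPM. Without replicate 2, 3 members were called in WT noTrp against WT CTR (*Pdk4* higher, *Acsl1* and *Fabp1* lower) and 2 in KO noTrp against WT noTrp (*Acaa1a* and *Fabp1* higher), while the calls over all 14370 genes rose from 459 to 728 and from 28 to 230. Without replicate 1 no member was called in either, and 99 and 14 of all genes were. Each of these fits leaves WT noTrp with 1 library, which is assumed to vary as the libraries of the other groups do. Libraries of KO noTrp differed in some of these genes too. There *Igfbp1* ran from 141 to 1200 CPM, *Irs2* from 3.17 to 10.4 CPM and *Pdk4* from 2.08 to 15.4 CPM, while *Fabp1* ran from 2070 to 3090 CPM. The part of feeding state in these differences was not tested.

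The members kept a common order between libraries of the same group. Among the 4 KO CTR libraries, replicate 2 was the highest for 33 of the 36 genes, beside 27.6% of all genes tested, and replicate 4 the lowest for 23, beside 22.8%. In WT noCys, replicate 2 was the highest for 27 (25.9% of all genes) and replicate 3 the lowest for 26 (30.3%). In KO noCys, replicate 1 was the highest for 31 (37.1%) and replicate 4 the lowest for 29 (30.3%). KO noTrp showed less of this, with replicate 1 highest for 17 (22.3%) and replicate 4 lowest for 17 (20%). WT CTR showed least, with replicate 2 highest for 15 (33.6%) and replicate 3 lowest for 18 (35.4%).

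The median of the 36 genes, as log2 difference from the WT CTR mean, was 0.39 in KO CTR replicate 2 and -0.09 in replicate 4. It ran from 0.22 to -0.14 in WT noCys and from 0.24 to -0.21 in KO noCys. These spans within groups are wider than the median difference of -0.09 between KO noCys and WT noCys. Scaled by library totals, replicate 2 of KO CTR was highest for 34 genes, beside 35.4% of all genes. On that scale replicate 2 of WT noCys was highest for 25 (25.7% of all genes) and replicate 1 of KO noCys for 19 (20.1%). KO CTR replicate 2 was the most deeply sequenced library of all (27230852 counts), whereas WT noCys replicate 2 and KO noCys replicate 1 were the shallowest of their groups (9473346 and 8889951).

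Genes outside the 36 were ordered similarly in part. KO CTR replicate 2 was the highest for 14 of 20 other peroxisomal and ω-oxidation genes, 14 of 23 other PPARα targets and 8 of 16 other mitochondrial and ketogenic genes. It was also highest for 4 of 6 immune and 3 of 5 erythroid markers, and for 1 of 7 hepatocyte markers and 5 of 17 clock and feeding genes. WT noCys replicate 2 was the highest for 10 of 20, 13 of 23 and 7 of 16 of the pathway genes in the same order of lists, and for 4 of 6 immune, 4 of 5 erythroid and 0 of 7 hepatocyte markers. WT noCys replicate 3 was the lowest for 12 of 20, 12 of 23 and 7 of 16 of those pathway genes, and for 4 of 6 immune, 1 of 5 erythroid and 0 of 7 hepatocyte markers. KO noCys replicate 1 was the highest for 11 of 20, 13 of 23 and 12 of 16 of the pathway genes, and for 5 of 7 hepatocyte, 1 of 6 immune and 1 of 5 erythroid markers, being the lowest for 5 of 6 immune and 3 of 5 erythroid markers. Scaled by library totals it was the highest for 5 of 20, 10 of 23 and 7 of 16 of the pathway genes, beside 20.1% of all genes. On that scale KO noCys replicate 3 was the highest for 14, 9 and 3 of them, beside 45% of all genes. These counts describe the libraries, and what set the order was not tested.

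**Figure D4:**
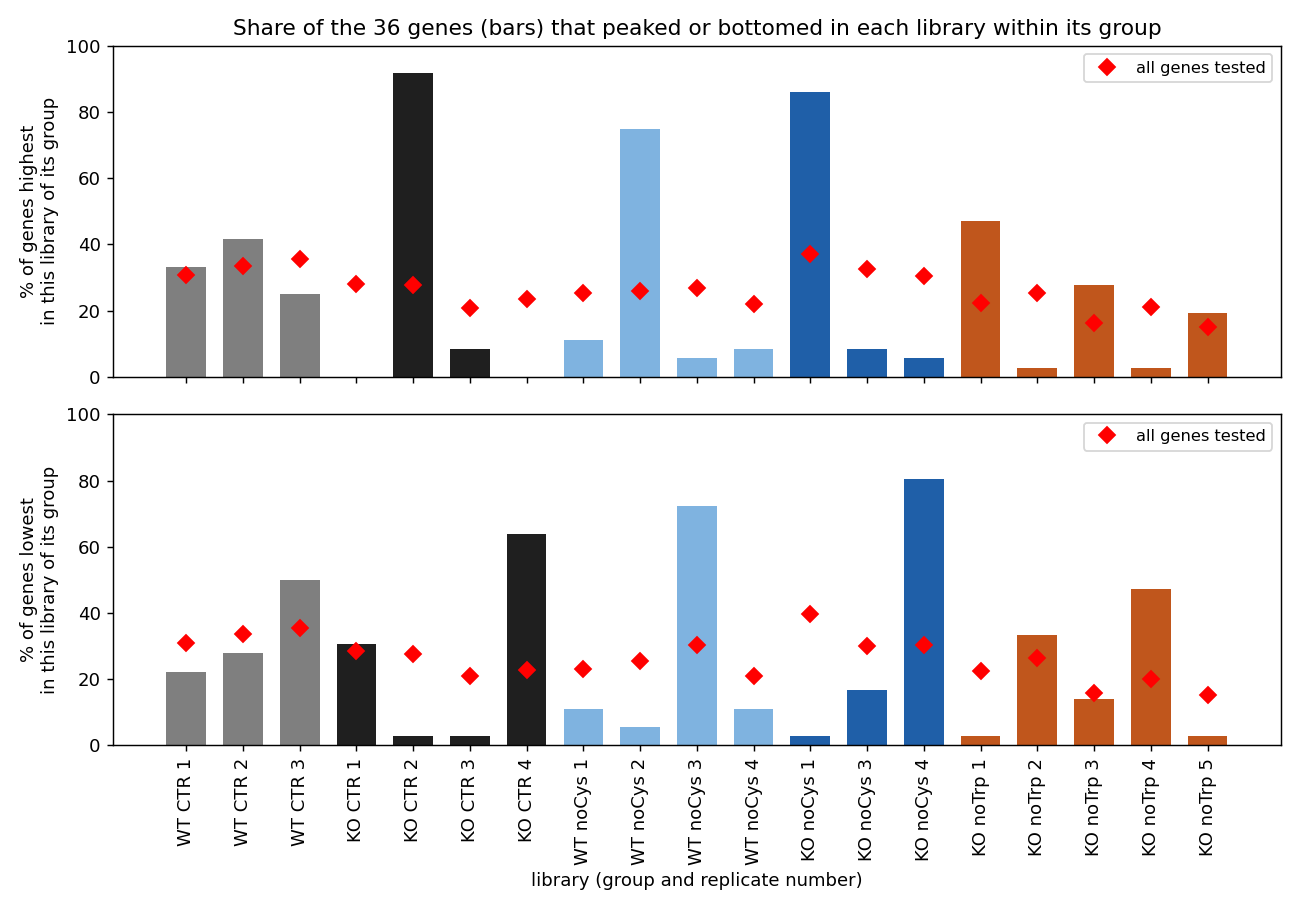
Share of the 36 genes (bars) for which each library was the highest (top) or lowest (bottom) of its group, beside the share of all 14370 genes tested (diamonds), for groups of 3 or more libraries. Bars of KO CTR 2, WT noCys 2 and KO noCys 1 rise to 91.7%, 75% and 86.1%, while the diamonds stay under 40%.

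The within-group spread was unequal across the roles. Pooled over groups, the SD of log2 CPM had a median of 0.22 over the members and 0.26 over all genes tested. It was smallest for mitochondrial β-oxidation (median 0.16) and the carnitine shuttle (0.18), and largest for ω-oxidation (0.83) and the thioesterase, fuel-switch and binding genes (0.73). *Acot3* had an SD of 1.40 and *Cyp4a14* of 1.04, exceeded by 0.292% and 0.974% of all genes tested, while *Creb3l3* had 0.11. Between KO noCys and WT noCys a difference of -0.43 was called in *Acaa2*, whose SD was 0.14, while -0.76 in *Acot3* was not.

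**Figure D5:**
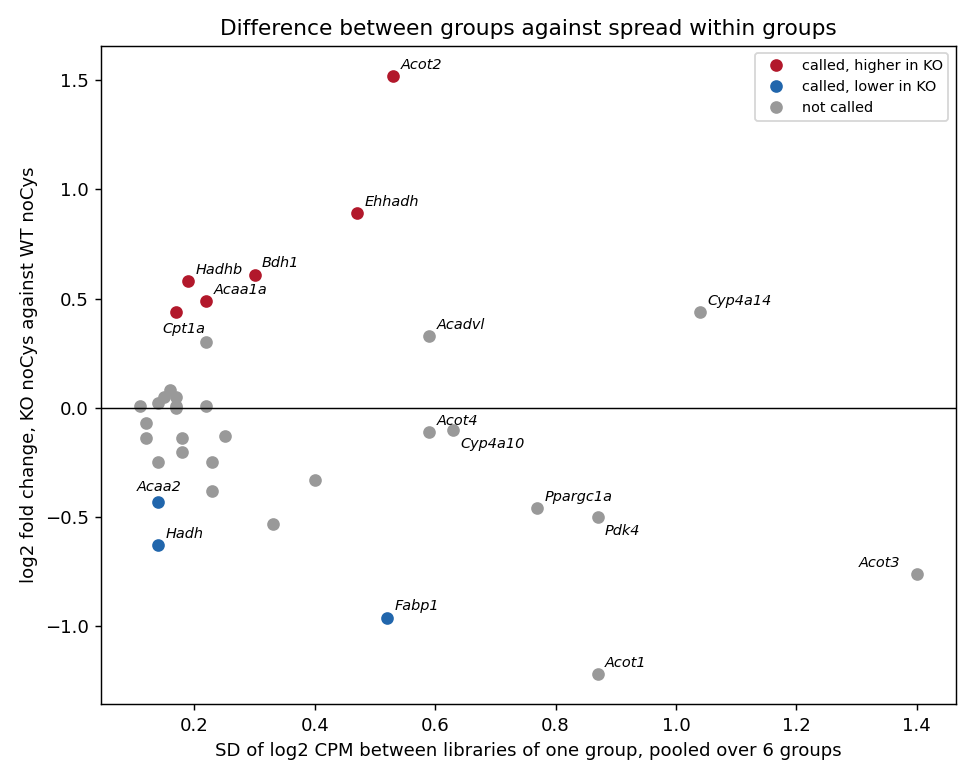
Log2 fold change of KO noCys against WT noCys (vertical) against the pooled SD of log2 CPM within groups (horizontal) for the 36 genes; red is called higher, blue called lower and grey not called. Called genes lie at an SD of 0.53 or less, and the genes beyond that, such as *Cyp4a14*, *Pdk4*, *Acot1* and *Acot3*, were not called.

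Other genes of the pathways, from lists written along with the 36, did not point one way either. Between KO noCys and WT noCys, 6 of 16 tested mitochondrial and ketogenic genes were called (2 higher, 4 lower; median -0.05), 4 of 20 peroxisomal and ω-oxidation genes (1 higher, 3 lower; median 0.05) and 10 of 23 further PPARα targets (7 higher, 3 lower; median -0.15), beside the 28.2% of all genes. Of these, 7 were called with a log2 fold change of at least 1 in size. *Fgf21*, the fasting hormone, was higher by 5.36 (SE 0.95), *Cd36*, a fatty acid transporter, by 2.98 (SE 0.31), and the lipid droplet proteins *Cidec* and *Plin2* by 1.48 (SE 0.40) and 1.17 (SE 0.31). For *Fgf21* the WT noCys libraries had only 0.525, 0.901, 0.475 and 0.857 CPM and the KO noCys libraries 6.88, 43.3 and 34.8 CPM. The size of its fold change therefore rests on a very low WT level. *Abcd2*, a peroxisomal fatty acid transporter, was lower by -2.03 (SE 0.60), *Cyp8b1*, the bile acid 12α-hydroxylase, by -1.03 (SE 0.35) and the synthetase *Acsl3* by -1.01 (SE 0.28). *Fgf21*, *Cd36*, *Cidec* and *Plin2* also respond to signals other than PPARα. *Cd36* was higher in the knockout on the other diets too, by 1.98 on CTR (adjusted p = 0.0107) and by 2.38 on noTrp (adjusted p = 0.0061). *Fgf21* was at 3.47 on CTR with overlapping groups (adjusted p = 0.263) and *Abcd2* at -1.69 with no overlap (adjusted p = 0.231), neither called. Neither was called in KO noTrp against WT noTrp (adjusted p = 0.813 and 0.502). *Plin2* was the only one of the 7 whose cysteine effect differed between genotypes (1.46, SE 0.44, adjusted p = 0.0464).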

How the data were processed

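The data were raw counts per gene in 21 liver libraries. According to the study's methods and the submitters' processing notes, poly(A) RNA was sequenced from both ends and the authors aligned reads to GRCm38 with HISAT2 2.1.0 and deposited counts made with HTSeq 0.11.0, one whole number per Ensembl gene and library, without normalization. Annotation release, strand setting and treatment of reads with several matches are not given in the sources used here. 1 column matched no sample and was not used. Groups and replicate numbers came from the sample titles.

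The counts went into edgeR 4.0.16 (R 4.3.3): filterByExpr (minimum count 10, minimum total 15), TMM factors (0.883 to 1.14), a one-way model of 6 groups over all libraries, quasi-likelihood F-tests, and Benjamini-Hochberg adjustment over 14370 genes. An SE is the log2 fold change over the root of F, and 95% intervals are normal. p-values measure the spread between libraries, titled as biological replicates. Precision follows from depth (8889951 to 27230852 counts). Symbols and coordinates came from GENCODE M21 (45229 of 46078 identifiers matched), sequences from RefSeq. Figures used matplotlib.

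Members and lists were chosen with earlier results of these data known. Values per library were to be given for regulators, *Cpt1a*, and members called with a log2 fold change of 1 or more in KO noCys against WT noCys or in a difference between genotypes; other pathway genes were named if called at that size. Values per library of further called members, and *Igfbp1* and *Irs2*, were added afterwards, their values being known. Other fits tried were DESeq2 1.42.0, limma-voom (limma 3.58.1) with quality weights, RLE factors, library totals, no filter, only the groups compared, a replicate block, and each library left out. The scripts were tested on simulated data. In the main fit the samples were not treated as paired by replicate number.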

Additional observations from a re-analysis of the deposited data

Results flagged for a closer look

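In groups of 4 or 5 libraries, 4 of 108 combinations of gene and group had a library far from the rest of its group, where chance gives about 1 in 20. *Cpt1a* in WT noCys was at 407 CPM in replicate 3 and at 466 to 474 CPM in the others. *Eci1* in WT noCys was at 200 CPM in replicate 2 and at 149 to 156 CPM in the others. In KO noTrp, replicate 4 had the lowest *Hadh*, at 332 CPM beside 386 to 400, and the lowest *Acaa1a*, at 349 CPM beside 420 to 446. These are the libraries that were also highest or lowest for many other members, as counted above.

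The effect of cysteine removal differed between KO and WT for *Hadh*, by -0.70 on the log2 scale (adjusted p = 0.0128, edgeR's quasi-likelihood test), with all 3 KO noCys libraries below all 18 others. It also differed for *Pex11a*, by -0.79 (adjusted p = 0.0419), where KO noCys lay below KO CTR in 3 of 3 libraries and the WT groups overlapped.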

How the results depend on the processing

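Calls by edgeR are counts of the 36 members. In KO noCys against WT noCys 9 became 14 by limma-voom (5 higher, 9 lower) and 3 to 8 with a library left out (4 without WT noCys replicate 3, 3 without KO noCys replicate 3), while calls over all genes went from 4055 to 5363, 3398 and 2358; *Hadhb*, *Hadh* and *Acot2* kept their call throughout. In KO noCys against KO CTR 6 became 12 by limma-voom and 2 to 8 with a library left out (2 without KO noCys replicate 3). In KO noCys against KO noTrp 4 became 7 by DESeq2, 8 by limma-voom, 7 with only the groups compared, and 1 to 5 with a library left out (1 without KO noCys replicate 3, 2 without KO noCys replicate 4 or KO noTrp replicate 3). For the difference of the cysteine effect 2 became 7 by limma-voom, 1 by library totals and 0 to 5 with a library left out (0 without KO noCys replicate 3, 5 without replicate 1, 1 without any of 9 others). Counts of 0 became 0 to 2 (KO noTrp against WT noTrp, without WT noTrp replicate 2), 0 to 1 (KO noTrp against KO CTR, without KO CTR replicate 2), 0 to 3 (WT noTrp against WT CTR, without WT noTrp replicate 2) and 0 to 1 (difference of the tryptophan effect, without WT noTrp replicate 2); without WT noTrp replicate 2 that group is a single library, assumed to vary like the others. Calls over all genes moved too: without KO noCys replicate 3 from 2906 to 1379 (against KO CTR), from 2000 to 570 (against KO noTrp) and from 1069 to 430 (difference of the cysteine effect), and by limma-voom to 4195, 3204 and 2179. The causes were not tested.

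Library totals turned uncalled fold changes in KO noCys against WT noCys to 0.06 (*Slc25a20*), 0.14 (*Cpt2*), 0.07 (*Echs1*), 0.08 (*Etfdh*), 0.00 (*Decr2*), 0.09 (*Cyp4a10*), 0.20 (*Acat1*) and 0.09 (*Acot4*). Limma-voom turned *Creb3l3* to -0.03, *Acadl* to -0.05, *Hadha* to -0.02, *Hsd17b4* to -0.07 and *Eci2* to -0.01, and no filter gave *Acat1* 0.00. With a library left out, uncalled values crossed 0 for *Creb3l3* (-0.06 to 0.05), *Cpt2* (-0.15 to 0.01), *Acadl* (-0.06 to 0.10), *Hadha* (-0.06 to 0.12), *Decr1* (-0.02 to 0.11), *Hsd17b4* (-0.10 to 0.11), *Eci2* (-0.02 to 0.14), *Cyp4a10* (-0.35 to 0.15), *Acat1* (-0.16 to 0.11) and *Acot4* (-0.24 to 0.02).

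The samples were not treated as paired by number. Same-numbered pairs deviated from their group means with correlations of -0.36 to 0.35. Differently numbered pairs were not compared, so these values do not decide whether the numbers pair the samples. With the replicate block 8 of the 9 calls remained in KO noCys against WT noCys, *Fabp1* (-0.81) being lost, 3 of 4 in KO noCys against KO noTrp, *Acaa2* (-0.36) being lost, and *Cyp4a10* and *Acat1* turned to 0.05 and 0.04; counts elsewhere were unchanged. Ranking libraries by totals, added after seeing the data, gave 19 in place of 31 members highest in KO noCys replicate 1. Groups of 2 or 3 libraries limit what could be called.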
